A study of Mus musculus with 6 samples.

Results

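The transcriptome described here is that of retinoic acid-differentiated N2a cells before any ferroptosis inducer was added, read from the 3 libraries labelled DMSO out of the 6 libraries in the series. They are all the libraries with that treatment label. N2a is a mouse neuroblastoma line that was kept in high-glucose DMEM with fetal bovine serum. For differentiation the cells received 10 µM retinoic acid in DMEM with 2% serum for 96 h with daily medium changes, and then the solvent DMSO for 24 h; whether retinoic acid stayed on is not stated. The other 3 libraries came from cells treated in the same way but given 5 µM RSL3 for 24 h, and they are not compared here. All cells are of 1 line with no genetic change named in the labels, and the labels do not state whether the 3 libraries came from separate cultures, so every SD below measures the spread between libraries and may be technical.

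Neuroblastoma arises from the sympathoadrenal branch of the neural crest, whose cells normally become noradrenergic neurons and chromaffin cells under a circuit of transcription factors that includes PHOX2A, HAND2 and GATA3. Retinoic acid binds nuclear receptors of the RAR and RXR families, and in neuroblastoma lines it is used to slow division and drive neurite growth. Ferroptosis is a cell death by iron-dependent lipid peroxidation, held in check mainly by the selenoenzyme GPX4 with glutathione made from imported cystine, and RSL3 acts by blocking GPX4. The levels below are those of the mRNAs for these components in differentiated cells that received the solvent without RSL3.

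Levels of mRNA and lncRNA are in FPKM, fragments scaled to transcript length and to library size, so that genes can be ranked against each other. Each value is given for DMSO replicates 1, 2 and 3 in that order, followed by the mean ± SD of the 3 libraries. A gene is called listed when the deposited tables hold it. In both kinds of table no gene has a mean under 0.5 FPKM in both treatment groups, so a gene that is not listed was either under that level or left out for another reason, and it is given no value. Of 22028 protein-coding genes annotated in GENCODE M21, 11576 (52.6%) were listed. The mRNA table held 11609 genes with a median of 6.44 FPKM. Of these, 195 had a DMSO mean under 0.5 FPKM and reached that level only in the RSL3 group. Being listed is therefore not by itself a sign of expression in the cells described here. At 1 FPKM or more there were 10522 mRNA genes, at 10 FPKM or more 4264, at 100 FPKM or more 334 and at 1000 FPKM or more 9. None of the 1135 annotated olfactory receptor genes was listed, and all 18 members of a list of common housekeeping genes were.

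The 3 libraries were close to each other. Summed mRNA levels were 225295, 224970 and 220605 FPKM, and Pearson correlations of log2 levels between pairs of libraries over the 10522 genes were 0.990 to 0.992, given as a description across genes, which are not independent. The median coefficient of variation (CV, the SD as a percentage of the mean) was 5.54% over these genes. It was 8.11% for genes at 1 to 5 FPKM, 4.22% at 10 to 100 FPKM and 2.98% above 100 FPKM. Only 95 of the 10522 genes had a CV over 50%.

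The most abundant mRNAs served respiration, translation and chromatin. The highest level was that of mt-Co1, which encodes a subunit of cytochrome c oxidase, with 2752, 2590.4 and 2444 FPKM (2595 ± 154). It was followed by mt-Cytb of respiratory complex III with 1930.5 ± 193 FPKM. All 13 mitochondrially encoded mRNAs were above 100 FPKM and together held 6.29%, 5.45% and 5.79% of summed mRNA levels, highest in replicate 1. The lowest of them was mt-Atp6 with 284 ± 32.7 FPKM, whose reading frame overlaps that of mt-Atp8. mt-Nd6, the only one of the 13 encoded on the opposite strand, had 1188 ± 22.2 FPKM, which was 1.59 ± 0.00904 times the level of mt-Nd5 across the 3 libraries.

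Among nuclear genes the leading level was that of Rpl8, a protein of the large ribosomal subunit, with 1357, 1269 and 1329 FPKM (1318 ± 44.7). The histone H2B gene Hist2h2bb followed with 1349, 1094 and 1185 FPKM (1209 ± 129). Their ranges overlap, although Rpl8 was higher in each library. Next came the translation elongation factors Eef1a1 with 1139 ± 30.7 FPKM and Eef2 with 1078 ± 10.7 FPKM, whose ranges did not overlap. The neuron- and muscle-enriched paralog of the first, Eef1a2, was also high at 245 ± 2.19 FPKM, so that Eef1a1 exceeded it 4.65 ± 0.151 times. Among the 20 leading nuclear mRNAs were 8 ribosomal protein genes (Rpl8, Rps15, Rplp1, Rplp0, Rpl32, Rpl19, Rpl17 and Rpl4) and 6 histone genes (Hist2h2bb, Hist1h2ak, Hist1h4k, Hist2h3b, Hist2h2aa1 and Hist1h3i). The others were the cytokine gene Mif with 708 ± 10.1 FPKM, the chaperone Hsp90ab1 with 698 ± 24.2 FPKM, the ferritin heavy chain gene Fth1 and the actin gene Actb with 614 ± 48.1 FPKM. Of the 19 neighbouring pairs in this order, 15 had overlapping ranges and 7 kept the same order in all 3 libraries, so most single ranks among the leading genes were not resolved by the spread. The 10 most abundant genes held 6.02 ± 0.342% of summed mRNA levels, and the 100 most abundant 24.2 ± 0.674%. The 100 most abundant genes had short transcripts, with a median length of 904.5 nt against 3360 nt for all genes at 1 FPKM or more.

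**Figure D1:**
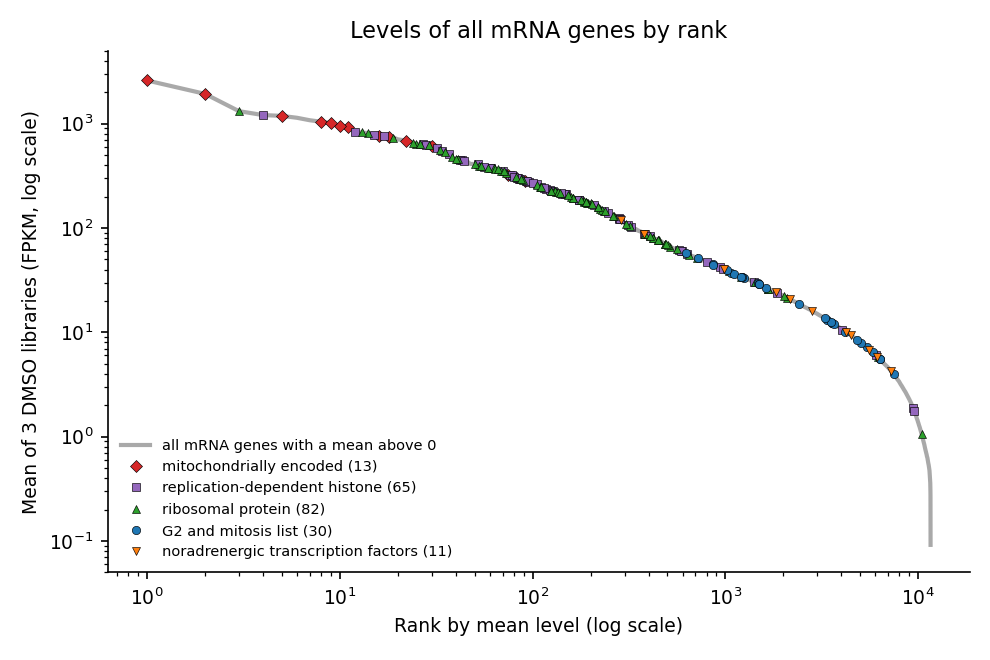
Mean level of every mRNA gene with a mean above 0 over the 3 DMSO libraries (FPKM, log scale) against its rank (log scale), with 5 groups of genes marked and their numbers in brackets. Mitochondrial, histone and ribosomal protein genes fill the top ranks, the noradrenergic transcription factors reach up to 119 FPKM (Hand2), and the G2 and mitosis genes lie between 3.99 and 57.0 FPKM.

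Replication-dependent histone genes, taken by symbols that start with Hist, which supply the core and linker histones used to package newly copied DNA, formed 1 of the largest classes. Of 67 annotated genes 65 were listed, all at 1 FPKM or more and 49 at 100 FPKM or more, with a median of 239 FPKM. Together they made up 7.91 ± 0.275% of summed mRNA levels, close to the 9.20 ± 0.202% of the 82 listed ribosomal protein genes. Histone and ribosomal protein genes have near-identical copies and pseudogenes in the genome, so the level of a single member is uncertain. Hist2h2aa1 had 758, 764 and 375 FPKM, lowest in replicate 3, while its neighbour Hist2h2aa2 had 551, 524 and 551 FPKM. The lncRNA Gm20634, which overlaps Hist2h2aa1 by 529 bp on the same strand, had 0.503, 61.3 and 60.7 FPKM, and its part in these levels was not tested. Replication-dependent histone mRNAs usually end in a stem-loop instead of a poly(A) tail, and the labels name a poly(A) isolation module as the step that removed ribosomal RNA. Whether the libraries were selected for poly(A) tails is therefore not settled by the labels, and the part of the library preparation in these levels was not tested.

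The stem-loop is shown because it is the shared feature of this class. The stem GGCTCT, the loop TTTN and the returning stem AGAGCC were searched as 1 run on the sense strand of GENCODE M21 transcripts (GRCm38). It was found in 32 of the 65 listed histone genes and in 1 of 11530 other listed genes (0.00867%). The median level was 211 FPKM for histone genes with a match and 295 FPKM for those without. Many histone transcript models stop at the stop codon, and for those a missing match may only reflect the annotated end. Others without a match have longer models, such as Hist2h4 with 1630 nt and Hist4h4 with 2863 nt. Only this exact stem was searched, so a stem with other bases would be missed. Capitals mark the motif in these stretches, on chromosome 3 at chr3:96246025-96246054 (+ strand) and on chromosome 13 at chr13:23752813-23752842 (+ strand) and chr13:23745040-23745069 (- strand).
Hist2h2aa1: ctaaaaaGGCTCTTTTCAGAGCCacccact
Hist1h3b: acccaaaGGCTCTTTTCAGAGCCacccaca
Hist1h3c: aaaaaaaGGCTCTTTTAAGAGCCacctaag

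Genes of the cell cycle were expressed without exception in both phase lists. All 30 genes of the G2 and mitosis list were listed and at 1 FPKM or more, with a median of 22.7 FPKM, and so were all 32 genes of the S phase and replication list, with a median of 17.6 FPKM. For comparison the median over all mRNA genes at 1 FPKM or more was 7.49 FPKM. Top2a, the topoisomerase that untangles replicated chromosomes, had 57.5, 57.8 and 55.7 FPKM (57.0 ± 1.14), and Plk1, a mitotic kinase, had 47.3, 53.4 and 53.0 FPKM (51.2 ± 3.41). Racgap1, which acts in cytokinesis, and the spindle checkpoint kinase Bub1b completed the 4 leading mitotic genes with 44.9 ± 1.12 and 44.5 ± 1.37 FPKM. The proliferation marker Mki67 had 29.0 ± 1.11 FPKM, and the mitotic kinase Cdk1 33.1 ± 1.31 FPKM. The lowest of the list was the checkpoint kinase Ttk with 3.99 ± 0.0314 FPKM. In RNA from whole cultures, few dividing cells with much of these mRNAs cannot be told apart from many cells with little, and no share of cycling cells follows from these levels.

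In the S phase list the leading gene was Uhrf1, which recruits the maintenance DNA methyltransferase, with 84.7, 89.2 and 85.6 FPKM (86.5 ± 2.39). The sliding clamp Pcna had 64.0 ± 2.83 FPKM, and the replicative helicase genes Mcm5 and Mcm7 had 49.6 ± 0.948 and 49.0 ± 1.48 FPKM, with ranges that overlapped. The lowest was the origin-recognition gene Orc1 with 3.55 ± 0.386 FPKM.

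Among cyclins, CDKs and their inhibitors 19 of 23 genes were listed, all at 1 FPKM or more. Cdk4 with 65.0 ± 2.47 FPKM and its partner cyclin D1 (Ccnd1) with 59.8 ± 1.43 FPKM led. Both were accompanied by inhibitor genes, with Cdkn2a at 46.7, 42.4 and 43.8 FPKM (44.3 ± 2.16) and the p53 target Cdkn1a at 29.7, 33.0 and 30.7 FPKM (31.1 ± 1.71). Trp53, which encodes p53, was at 36.6 ± 3.49 FPKM. The retinoblastoma gene Rb1 was lower, at 2.61 ± 0.132 FPKM. The 4 genes not listed were Ccnd2, Cdk6, Cdkn1c and Cdkn2b. Of the D-type cyclins the third, Ccnd3, had 1.68, 4.83 and 1.76 FPKM, and its mean of 2.76 FPKM was 1.72 FPKM without replicate 2.

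The pan-neuronal list, cytoskeletal and RNA-binding genes found in most neurons, had 25 of 30 genes listed, all at 1 FPKM or more, and a median of 24.8 FPKM. Its highest member was Prph, at chr15:99055174-99058978, which encodes the intermediate filament peripherin of peripheral neurons, with 463, 471 and 465 FPKM (467 ± 3.96). It ranked 39 of all mRNA genes. The microtubule regulator Stmn1 had 191 ± 3.71 FPKM, the neuronal ubiquitin hydrolase Uchl1 189 ± 10.7 FPKM and the stathmin Stmn3 173 ± 1.05 FPKM. The neuronal tubulin gene Tubb3 had 117, 115 and 115 FPKM (116 ± 1.02), though tubulin genes share sequence with close copies.

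The other intermediate filaments of neurons were far below peripherin or not listed. Nefh, the heavy neurofilament gene, had 12.1 ± 0.317 FPKM, so that Prph exceeded it 38.7 ± 0.975 times. Ina, the internexin gene, had 22.8 ± 1.14 FPKM, and the light and medium neurofilament genes Nefl and Nefm were not listed. The dendritic microtubule protein gene Map2 was at 2.56 ± 0.0354 FPKM and its axonal relative Mapt, the tau gene, at 13.0 ± 0.151 FPKM. The remaining 3 genes that were not listed were Dcx (doublecortin), Rbfox1 and Rbfox3, which encodes the nuclear antigen NeuN. The labels give the cell type as neuron. Measured against defining markers, Tubb3, Prph and Uchl1 were among the 300 highest mRNA ranks, while Rbfox3 and Dcx were not listed.

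Genes of transmitter release were present at moderate levels. Of 30 synaptic vesicle and release genes 22 were listed, all at 1 FPKM or more and none at 100 FPKM or more, with a median of 12.4 FPKM. The complexin Cplx1, which clamps vesicle fusion, had 45.3, 46.1 and 47.2 FPKM (46.2 ± 0.948), the vesicle protein Sv2c 42.1 ± 3.46 FPKM and the synaptotagmin Syt4 36.4 ± 0.809 FPKM. The core fusion machinery was lower, with Vamp2 at 22.1 ± 0.550 and Snap25 at 10.9 ± 0.547 FPKM. Among the 8 genes not listed were the active zone genes Pclo and Rims1 and the calcium sensor gene Syt2.

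The dense-core vesicle list divided between granins and peptides. Of its 22 genes 12 were listed and 11 reached 1 FPKM. Chgb, a granin that builds the vesicle core, led with 102, 97.8 and 95.8 FPKM (98.4 ± 2.93), and the granin-family genes Scg5 and Scg2 had 67.5 ± 4.30 and 62.5 ± 2.70 FPKM. Vgf, a secreted neuropeptide precursor induced by nerve growth factor, had 42.0, 48.7 and 152 FPKM, and its mean of 80.8 FPKM was 45.4 FPKM without replicate 3. Of the neuropeptide genes only Npy (2.38 ± 0.158 FPKM) and Cartpt (1.54 ± 0.246 FPKM) were listed with Vgf, and Sst, Vip, Tac1, Gal, Penk, Pdyn, Adcyap1, Nts and Calca were not. Of the prohormone convertases that cut these precursors Pcsk2 was at 0.935 ± 0.0463 FPKM and Pcsk1 was not listed.

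Postsynaptic genes were sparse. Of 26 receptor and scaffold genes 11 were listed and 9 were at 1 FPKM or more. The activity-regulated gene Arc led with 16.2, 15.7 and 18.2 FPKM (16.7 ± 1.31), followed by the scaffold Dlg4, which encodes PSD-95, with 13.0 ± 0.607 FPKM and by Gphn, the gephyrin gene, with 12.2 ± 0.714 FPKM. Their receptors were low or missing from the tables. The obligatory NMDA receptor subunit Grin1 was at 2.31 ± 0.344 FPKM while Grin2a and Grin2b were not listed, none of the 4 AMPA receptor genes Gria1 to Gria4 was listed, and none of 6 GABA-A alpha subunit genes was. Among voltage-gated channels 15 of 22 genes were listed and 9 reached 1 FPKM. The highest were the delayed-rectifier potassium channel gene Kcnh2 with 24.5 ± 1.01 FPKM and the pacemaker channel gene Hcn2 with 23.2 ± 1.51 FPKM. Sodium channel genes were lower, with Scn9a at 3.09 ± 0.366, Scn8a at 3.01 ± 0.186 and Scn2a at 0.814 ± 0.0313 FPKM.

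Levels of the noradrenergic transcription factors ranged from 4.22 FPKM (Sox11) to 119 FPKM (Hand2). Of 16 genes in the list 11 were listed, all at 1 FPKM or more and 7 at 10 FPKM or more. The median of the listed factors was 16.1 FPKM, against 7.49 FPKM over all mRNA genes at 1 FPKM or more. Hand2, a basic helix-loop-helix factor at chr8:57320983-57324633, had 119, 116 and 122 FPKM (119 ± 2.95) and ranked 286. Phox2a had 86.7, 88.1 and 90.1 FPKM (88.3 ± 1.73). Gata2 had 24.3 ± 1.14 FPKM and Gata3 9.36 ± 0.321 FPKM. The 3 libraries gave the same order throughout, since none of the 10 neighbouring pairs among the 11 listed factors had overlapping ranges. Hand1, Tfap2a, Tfap2b and Tlx2 were among those not listed.

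The list of enzymes and transporters that make and store noradrenaline had a lower median than the list of factors. Of 15 genes 9 were listed and 8 reached 1 FPKM, with a median of 6.24 FPKM. Th, which encodes tyrosine hydroxylase, the rate-limiting enzyme of catecholamine synthesis, had 0.730, 0.684 and 0.996 FPKM (0.803 ± 0.169), so it stayed under 1 FPKM in each library. The next enzyme of the pathway, Ddc, was not listed. Dbh, which turns dopamine into noradrenaline, had 5.46 ± 0.477 FPKM, and was 7.05 ± 1.84 times the level of Th. The vesicular monoamine transporter gene Slc18a2 had 3.93, 4.32 and 4.31 FPKM (4.19 ± 0.222), while Slc18a1, its chromaffin cell paralog, and the noradrenaline transporter gene Slc6a2 were not listed.

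Genes shared with other pathways were the highest of this list. Gch1, which makes the cofactor tetrahydrobiopterin and is also known as a suppressor of ferroptosis, had 30.7 ± 1.01 FPKM. The cofactor-recycling Qdpr had 10.2 ± 2.95 FPKM and the electron donor Cyb561 7.70 ± 0.560 FPKM. Ranges overlapped between Qdpr and Cyb561, between Cyb561 and Spr, and between Spr and Dbh, and not between the other neighbours. Pnmt, which makes adrenaline, and the monoamine oxidase genes Maoa and Maob were not listed. Hand2 exceeded Th by 152 ± 25.7 times, a comparison of levels per length within each library.

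Receptors known from sympathetic neuroblasts had 10 of 17 genes listed. Ret, the receptor tyrosine kinase of the GDNF family ligands, had 53.8, 57.1 and 56.9 FPKM (56.0 ± 1.85), although its co-receptor gene Gfra1 was at 0.620 ± 0.0834 FPKM and Gfra2 and Gfra3 were not listed. The neurotrophin receptor Ngfr had 33.3 ± 1.02 FPKM and the ganglionic nicotinic subunit Chrna3 24.5 ± 0.522 FPKM. Alk, which is often mutated in neuroblastoma, had 9.06 ± 0.336 FPKM. Ntrk2, the 3 alpha-2 adrenergic receptor genes Adra2a, Adra2b and Adra2c, and Chrnb4 were not listed.

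Genes of other transmitter programmes were mostly not listed, with the serotonergic and dopaminergic list the fullest of those given here. None of the 6 glutamatergic genes was listed, 1 of 9 GABAergic and glycinergic genes was (Dlx2 with 1.76 ± 0.142 FPKM), and 1 of 5 cholinergic genes was, namely the acetylcholine-degrading Ache with 1.87, 2.38 and 3.15 FPKM (2.46 ± 0.642). Chat and both acetylcholine-related transporters, Slc18a3 and Slc5a7, were not listed. The serotonergic and dopaminergic list had 4 of 10 genes. Both tryptophan hydroxylase genes, which start serotonin synthesis, were low but present, Tph1 with 3.04 ± 0.330 and Tph2 with 2.93 ± 0.349 FPKM, and so was the serotonergic factor Fev with 4.33 ± 0.369 FPKM. The means of Tph1, Tph2 and Fev were above that of Th. The serotonin and dopamine transporter genes Slc6a4 and Slc6a3 were not listed.

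**Figure D2:**
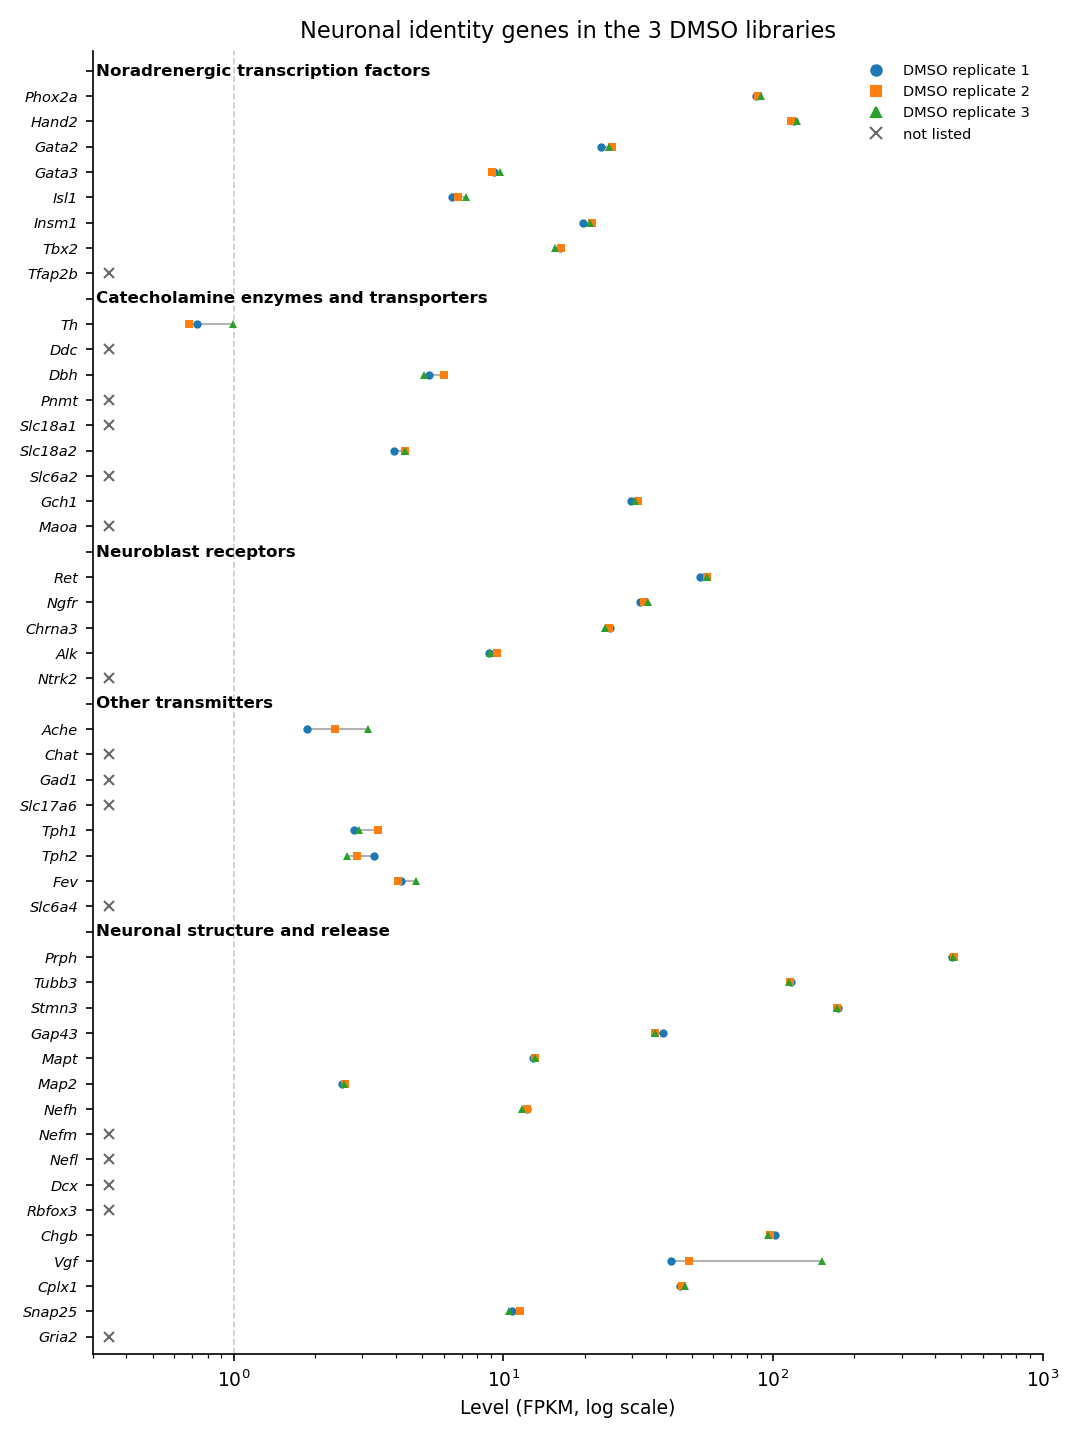
Level (FPKM, log scale) of selected neuronal identity genes in DMSO replicates 1 (circles), 2 (squares) and 3 (triangles), joined by a line per gene, with crosses at the left edge for genes that are not listed and a dashed line at 1 FPKM. The noradrenergic transcription factors drawn, apart from Tfap2b, which is not listed, have higher means than Th, Dbh and Slc18a2. Vgf is the gene shown whose libraries are farthest apart (42.0 to 152 FPKM).

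Retinoic acid receptors and response genes had 12 of 24 genes listed, all at 1 FPKM or more. Cyp26b1, a cytochrome P450 that degrades retinoic acid, had 71.3, 78.2 and 75.3 FPKM (74.9 ± 3.48). It was followed by the receptor genes Rara with 16.4, 17.9 and 16.6 FPKM, Rxrb with 15.2 ± 0.397 FPKM and by the retinol carrier gene Rbp4 with 10.4 ± 0.393 FPKM. Rarg was at 6.84 ± 0.172 FPKM. The classical response genes Rarb, Cyp26a1, Dhrs3, Stra8, Hoxb1 and Cdx1 were not listed, nor were Rxrg and the retinal dehydrogenase genes Aldh1a1, Aldh1a2 and Aldh1a3. Libraries of cells without retinoic acid are not among those used here, so no response to it can be read from these levels.

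Progenitor and neural crest genes had 11 of 20 listed and 9 at 1 FPKM or more. The intermediate filament gene Vim had 74.9, 78.7 and 67.9 FPKM (73.8 ± 5.44) and the oncogene Myc 68.4 ± 2.27 FPKM, whereas its relative Mycn, amplified in many human neuroblastomas, had 5.83 ± 0.130 FPKM. The let-7 blocking genes Lin28a and Lin28b had 17.4 ± 0.157 and 4.13 ± 0.437 FPKM, and Msi1, an RNA-binding protein of neural progenitors, 11.8 ± 0.999 FPKM. Nes, the nestin gene, was at 5.37 ± 0.192 FPKM, and Hes5 and Snai2 were at 0.902 ± 0.0347 and 0.704 ± 0.0927 FPKM. Those not listed were Sox1, Sox2, Sox10, Foxd3, Prom1, Hes1, Snai1, Twist1 and Prrx1.

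**Figure D3:**
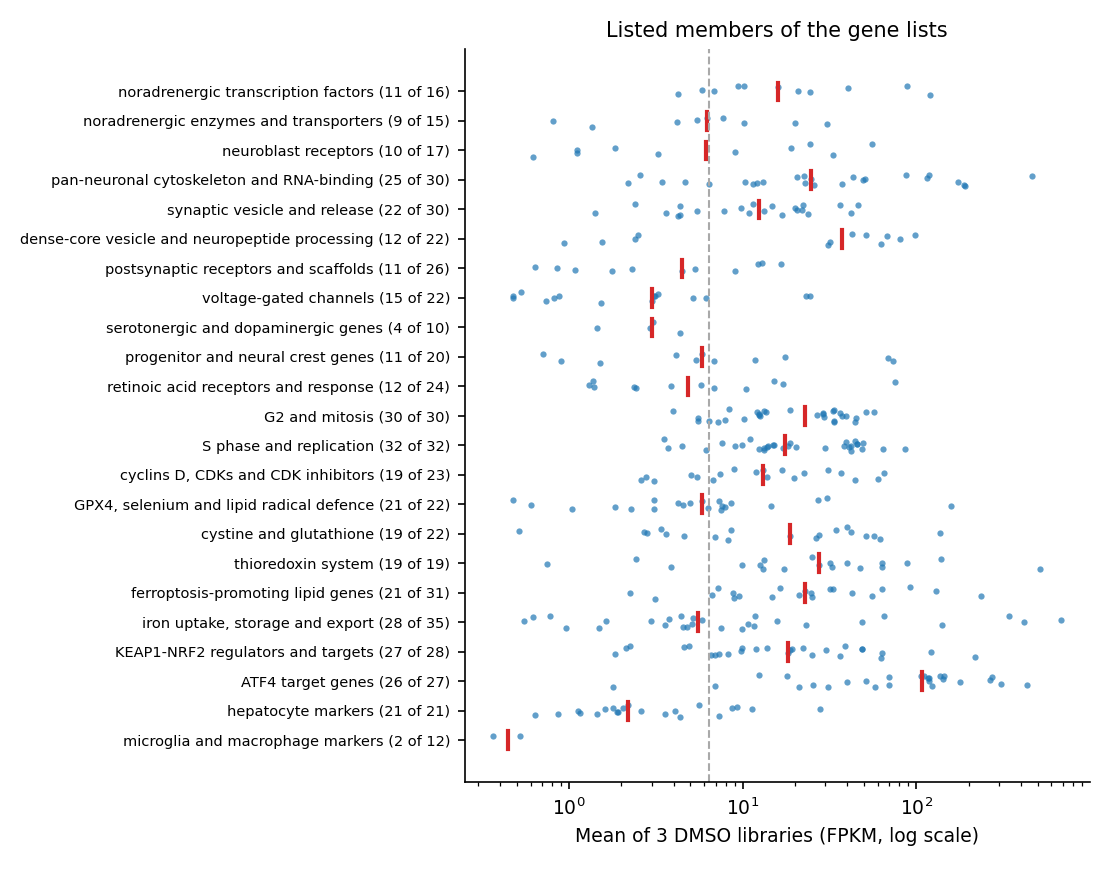
Mean level over the 3 DMSO libraries (FPKM, log scale) of every listed member of 23 gene lists, each point 1 gene, with the listed and total numbers in brackets, a red bar at the median of the listed members and a dashed line at the median of all listed mRNA genes (6.44 FPKM). Of the lists drawn, the ATF4 target list, which was written after the values were seen, has the highest median (108 FPKM); mitochondrially encoded mRNAs, translation factors and housekeeping genes are not drawn and have higher ones (925, 181 and 187 FPKM); both phase lists of the cell cycle have all their members, and the postsynaptic, serotonergic and microglial lists are only partly filled and low.

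Gpx4, the target of RSL3, was the leading gene among lipid peroxide and lipid radical defences. At chr10:80047166-80056439 it had 159, 155 and 160.0 FPKM (158 ± 2.66) and ranked 221 of 11609. Of the 22 genes in this list 21 were listed and 19 reached 1 FPKM, but the median of the listed genes was 5.86 FPKM and only Gpx4 passed 100 FPKM. Gch1 and the selenophosphate synthetase gene Sephs2, with 27.1 ± 1.27 FPKM, came next, followed by the selenocysteine elongation factor Eefsec with 14.6 ± 0.610 FPKM. The backup systems that act through ubiquinol were lower. Aifm2, which encodes FSP1, had 8.24, 7.64 and 7.73 FPKM (7.87 ± 0.325), so that Gpx4 exceeded it 20.1 ± 0.736 times, and Dhodh had 6.29 ± 0.164 FPKM. Vkorc1l1, a vitamin K reductase, had 7.84, 2.93 and 2.84 FPKM, and its mean of 4.54 FPKM was 2.88 FPKM without replicate 1. Coq8a and Mboat1 were under 1 FPKM, with 0.600 ± 0.149 and 0.473 ± 0.0608 FPKM, and Mboat2 was not listed.

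GPX4 carries selenocysteine at its active site, encoded by a TGA codon that elsewhere means stop. The windows around this codon are shown for Gpx4, Gpx1 and the 3 thioredoxin reductases, each with an in-frame TGA, from GENCODE M21 transcripts on GRCm38, with the codon in capitals. They lie at chr10:80054725-80054751, chr9:108339439-108339465, chr10:82896025-82896045, chr16:18477760-18477780 and chr6:89674777-89674797, all on the + strand. In each reductase the TGA is the last codon but 1, as codon 612 of 613 in Txnrd1, 526 of 527 in Txnrd2 and 614 of 615 in Txnrd3.
Gpx4: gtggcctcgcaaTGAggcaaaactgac
Gpx1: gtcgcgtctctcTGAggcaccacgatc
Txnrd1: cagtctggctgcTGAggttaa
Txnrd2: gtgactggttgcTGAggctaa
Txnrd3: cagaaaggctgcTGAggctag

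Of 8 glutathione peroxidase genes in the annotation 3 were listed. Gpx1, the general cytosolic enzyme, had 17.9, 65.2 and 19.8 FPKM, and its mean of 34.3 FPKM was 18.9 FPKM without replicate 2. Gpx4 was the higher of the pair in every library, by 2.38 to 8.85 times. Gpx3, the secreted form, which also has an in-frame TGA, had 0.515 ± 0.267 FPKM, and Gpx7 and Gpx8 were not listed.

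The cystine and glutathione list had 19 of 22 genes listed and 18 at 1 FPKM or more, with a median of 18.7 FPKM. Cystine enters through a transporter of 2 chains, and these differed widely in mRNA level. The heavy chain gene Slc3a2, which also serves other amino acid transporters, had 138, 137 and 138 FPKM (138 ± 0.595), while the cystine-specific light chain gene Slc7a11, at chr3:49892526-50443614, had 6.79, 7.11 and 6.92 FPKM (6.94 ± 0.164). The heavy chain was 19.8 ± 0.526 times higher. The glutamine transporter Slc1a5 had 61.9 ± 2.54 FPKM, and glutathione reductase (Gsr) 54.2, 61.7 and 55.4 FPKM (57.1 ± 4.03). Chac1, which degrades glutathione and is a known ATF4 target, was at 50.5, 52.1 and 51.5 FPKM (51.3 ± 0.790). The catalytic subunit of glutamate-cysteine ligase, Gclc, had 18.7 ± 0.402 FPKM, its modifier Gclm 4.61 ± 0.386 FPKM and glutathione synthetase (Gss) 2.72 ± 0.219 FPKM. Ggt1 was not listed.

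All 19 genes of the thioredoxin and superoxide list were listed and 18 reached 1 FPKM. The copper-zinc superoxide dismutase gene Sod1 had 537, 498 and 506 FPKM (514 ± 20.2), rank 36. Thioredoxin (Txn1) had 136, 150.4 and 132 FPKM (139 ± 9.76), and the peroxiredoxins Prdx2 and Prdx4 had 88.8 ± 2.07 and 63.1 ± 2.69 FPKM. Cytosolic Txnrd1 had 63.1 ± 2.26 FPKM, 16.3 ± 1.53 times the level of the mitochondrial Txnrd2. Prdx1 was highest in replicate 1, with 58.9, 41.7 and 40.9 FPKM. The glutaredoxin Glrx was the 1 gene under the limit, at 0.742 ± 0.0892 FPKM.

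A list of lipid genes linked to ferroptosis held enzymes that make and place fatty acids, a lipoxygenase partner, mitochondrial channels and oxidases, and its lipoxygenase members were not listed. Of its 31 genes 21 were listed, all at 1 FPKM or more, with a median of 22.7 FPKM. The desaturase Scd2, which makes monounsaturated fatty acids that resist oxidation, led with 228, 247 and 233 FPKM (236 ± 10.0) and was 35.5 ± 2.16 times the level of its paralog Scd1. Pebp1, a lipoxygenase partner, had 130.5 ± 3.20 FPKM, the polyunsaturated fatty acid desaturase Fads2 91.9 ± 2.86 FPKM and the mitochondrial channel Vdac3 63.4 ± 0.951 FPKM. Acsl4, which loads arachidonic acid for membrane lipids, had 22.2, 23.6 and 22.4 FPKM (22.7 ± 0.788), close to Lpcat3, which places it there, with 24.6 ± 1.57 FPKM. None of the 8 annotated lipoxygenase genes was listed, among them Alox5, Alox12 and Alox15. Ptgs2, a widely used ferroptosis marker, and the oxidase genes Nox1 and Nox4 were not listed either, whereas the reductase Por was at 42.7 ± 0.505 FPKM.

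The ferritin heavy chain gene Fth1 had the highest level of the iron genes. Of 35 genes 28 were listed and 24 reached 1 FPKM, with a median of 5.50 FPKM. Fth1 had 682, 664 and 709 FPKM (685 ± 22.7) and ranked 23. The light chain Ftl1 had 495, 486 and 265 FPKM (415 ± 130.3), lower in replicate 3 than in the others, and it has processed copies in the genome, so its level is uncertain. The iron chaperones Pcbp2 and Pcbp1, which also bind RNA, had 341 ± 14.9 and 141 ± 3.49 FPKM. Uptake and export genes were far lower. The transferrin receptor Tfrc had 10.2, 10.2 and 9.48 FPKM (9.97 ± 0.426), the divalent metal transporter Slc11a2 4.75 ± 0.410 FPKM and the only known iron exporter Slc40a1 0.955, 0.938 and 0.992 FPKM (0.962 ± 0.0279). Ncoa4, the receptor that takes ferritin to degradation, had 1.62 ± 0.226 FPKM, so that Fth1 exceeded it 355 to 477 times.

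The iron regulatory proteins were both expressed, with Aco1 (IRP1) at 11.8 ± 0.390 FPKM and Ireb2 (IRP2) at 7.22, 7.74 and 7.44 FPKM (7.47 ± 0.258). Heme oxygenase 1 (Hmox1), which frees iron from heme, had 46.1, 49.8 and 49.5 FPKM (48.4 ± 2.05). The members under 1 FPKM besides Slc40a1 were Tfr2, Hamp and Lcn2, with 0.777 ± 0.211, 0.623 ± 0.108 and 0.547 ± 0.0833 FPKM. Those not listed were Slc39a8, Steap2, Steap4, Ftmt, Heph, Cp and Mfi2.

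Iron regulatory proteins bind a stem-loop called the iron-responsive element, and the elements are shown because storage and uptake mRNAs carry it at opposite ends. A pattern of C, 5 bases, CAGTGN and 5 bases pairing with the first 5 (G with T allowed) was searched on the sense strand of GENCODE M21 transcripts. It was present in 4 of the 28 listed iron genes, and in 247 of 11595 listed mRNA genes (2.13%). Only this exact pattern was searched, so an element of another form would be missed, and a gene without a match may still carry one. Fth1 (chr19:9982732-9982760, + strand), Ftl1 (chr7:45459779-45459807, - strand) and Slc40a1 (chr1:45925465-45925493, - strand) hold 1 match in the 5′ UTR, and Tfrc holds 4 in the 3′ UTR, of which the first lies at chr16:32631219-32631247 (+ strand). Capitals mark the loop bases. A match is a description of letters on GRCm38 and not a test of binding.
Fth1: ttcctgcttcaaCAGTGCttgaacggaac
Ftl1: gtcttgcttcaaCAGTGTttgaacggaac
Slc40a1: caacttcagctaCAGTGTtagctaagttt
Tfrc: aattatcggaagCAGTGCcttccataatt

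Regulators and targets of NRF2, the factor that induces antioxidant genes, had 27 of 28 genes listed, all at 1 FPKM or more, with Abcc4 not listed. The autophagy adaptor Sqstm1 had 217 ± 2.21 FPKM, the glutathione transferase Gstp1 122 ± 2.08 FPKM and the pentose phosphate enzyme Taldo1 62.8 ± 2.80 FPKM. The regulators were lower, with Nfe2l2 (NRF2) at 13.7 ± 0.515 FPKM and its inhibitor Keap1 at 8.22 ± 0.430 FPKM. The quinone reductase gene Nqo1 had 7.27 ± 0.151 FPKM. Several members, such as Gclc, Hmox1 and Slc7a11, are also counted in the lists above.

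**Figure D4:**
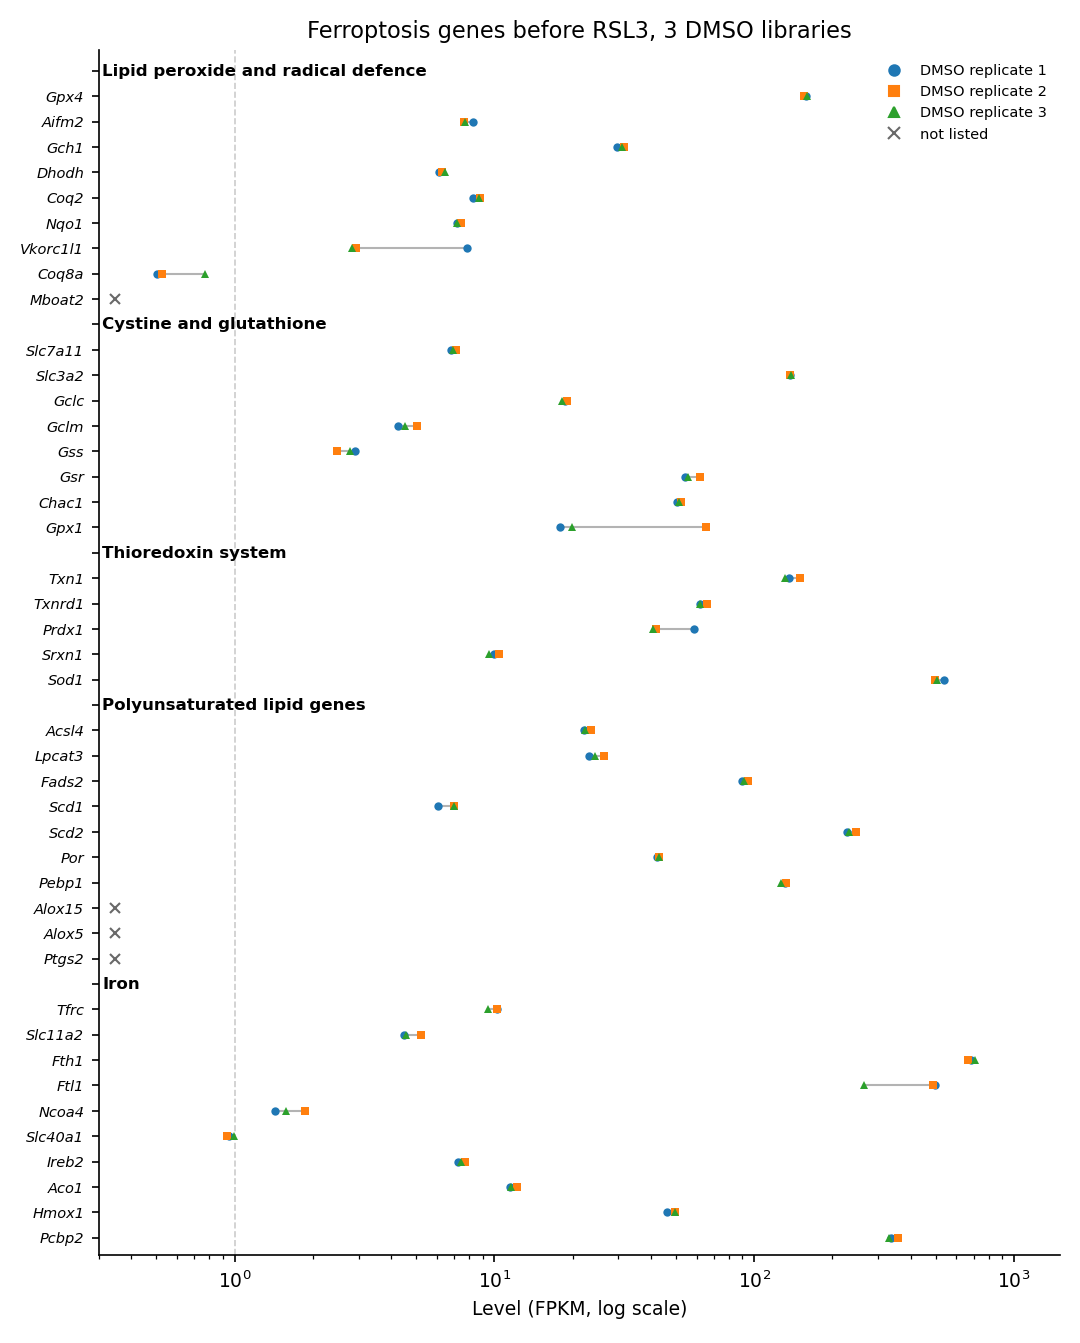
Level (FPKM, log scale) of selected ferroptosis and iron genes in DMSO replicates 1 (circles), 2 (squares) and 3 (triangles), joined by a line per gene, with crosses at the left edge for genes that are not listed and a dashed line at 1 FPKM. Fth1 and Sod1 lie highest and Slc40a1 just under 1 FPKM, while Gpx1, Ftl1 and Vkorc1l1 each have 1 library apart from the others.

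Markers of other cell types were mostly not listed. Of 12 microglia and macrophage markers 2 were listed, both under 1 FPKM (Tmem119 and Cd68), of 10 astrocyte markers 4 were and Gfap and Aqp4 were not, and of 10 endothelial markers 3 were, with Eng at 6.29 ± 0.133 FPKM as the only one at 1 FPKM or more. Of 12 oligodendrocyte and Schwann cell markers 5 were listed, led by Pmp22 with 23.9 ± 0.963 FPKM, of 12 fibroblast markers 5 were, led by Fn1 with 16.8 ± 1.62 FPKM, and of 13 muscle and erythroid markers 3 were. Hepatocyte markers stood apart in number, though all marker lists were chosen with earlier results of these data known. All 21 were listed and 19 had a mean of 1 FPKM or more, 15 of them at that level in every library. Most of them were low, with a median of 2.19 FPKM and 6 genes at 5 FPKM or more. Their summed levels were 81.7, 118 and 105 FPKM, lowest in replicate 1, and Alb, the albumin gene, had 24.0, 33.9 and 26.3 FPKM (28.1 ± 5.21). The liver-type urinary protein genes (Mup) had 19 of 22 members listed with a sum of 63.3, 155 and 123 FPKM, again lowest in replicate 1, though these genes are near-identical and single members are uncertain. The source of these liver mRNAs was not tested.

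Of lncRNA genes 866 were listed and 411 had a mean of 1 FPKM or more, while 98 had a DMSO mean under 0.5 FPKM. Summed levels were 21975, 24249 and 26046 FPKM, of which 85.5% to 88.2% came from Gm26917 and Gm42418. These neighbouring genes on chromosome 17 (chr17:39843013-39846341 and chr17:39846958-39848788) are annotated over a copy of ribosomal RNA sequence, and had 15128 ± 1554 and 5843 ± 585 FPKM. Both were lowest in replicate 1 and highest in replicate 3. How much of this signal is ribosomal RNA itself was not tested.

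The leading lncRNA beside these was 2410006H16Rik with 383, 360.3 and 378 FPKM (374 ± 11.8), followed by the nuclear speckle RNA Malat1 with 211, 189 and 196 FPKM (198 ± 10.9). The lncRNA table also held processed transcripts that carry the names of protein-coding genes, Cct6a with 110.5 ± 4.14 and Ifi30 with 81.0 ± 3.66 FPKM. AI506816, 1110038B12Rik, Gm10076 and Epb41l4aos, with 94.0 ± 3.21, 93.3 ± 0.752, 64.9 ± 13.8 and 48.7 ± 1.76 FPKM, completed the 10 highest. Of 59 well-known lncRNAs 27 were listed. The symbols Snhg7, Snhg16, Cyrano, Oip5os1, Norad, Pnky and Cdr1os are not used in GENCODE M21, so these RNAs may be in the tables under another name. Hosts of small nucleolar RNAs were frequent among them, such as Snhg5 with 44.7 ± 2.58, Snhg1 with 43.6 ± 1.43 and Gas5 with 22.8 ± 1.99 FPKM. Snhg3 had 42.9, 80.7 and 21.5 FPKM, and its mean of 48.4 FPKM was 32.2 FPKM without replicate 2. It overlaps the same-strand gene Rcc1. Xist, which coats the inactive X chromosome, had 38.4, 35.0 and 37.7 FPKM (37.0 ± 1.80), and the paraspeckle RNA Neat1 15.8 ± 0.794 FPKM. Among those not listed were the imprinted Meg3, Rian, Mirg and H19 and the neuronal Miat, Rmst and Sox2ot.

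Some genes differed strongly between libraries. Of the 4264 mRNA genes at 10 FPKM or more, 12 had a CV over 50%, and the mean of 6 moved by more than 1.5 times when 1 library was left out. The 10 with the largest CV were Hist3h2a, AC034099.1, Rnasek, Trim17, Gpx1, Vgf, Hist2h3c1, Exosc6, Cdkn2d and Mob1a. Several of them share their locus with another gene. Hist3h2a had 16.7, 6.75 and 102 FPKM while Trim17, which overlaps it on the same strand over 2146 bp, had 49.5, 52.2 and 0.619 FPKM, so the high library of 1 gene was the low library of the other. The same held for Hist2h3c1, with 151, 49.6 and 49.2 FPKM, and the overlapping lncRNA Gm20634, with 0.503, 61.3 and 60.7 FPKM. Without its high library, replicate 3, Hist3h2a had a mean of 11.7 FPKM in place of 41.9, and without replicate 1 Hist2h3c1 had 49.4 in place of 83.4. Levels of overlapping genes depend on how fragments are shared between them, so these values are uncertain for both. AC034099.1 overlaps Ctsd and Ifitm10, and Rnasek overlaps Gm21988. The means of AC034099.1 and Rnasek were 12.3 and 23.1 FPKM, and fell to 5.99 FPKM without replicate 3 and to 11.7 FPKM without replicate 2. No same-locus partner was found for Vgf or Gpx1.

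Circular RNAs form when a downstream splice donor joins an upstream acceptor, and are counted by reads across this back-splice junction. The deposited tables held 3168 circRNAs. Taking the smallest value of each library as 1 read, the libraries held 9409, 7194 and 7179 back-splice reads and showed 1664, 1557 and 1555 circRNAs. Of the 3168, 733 were seen in all 3 libraries, 868 in 2, 841 in 1 and 726 in none of them. The 733 held 67.6% of all reads. At this depth 20.4% to 22.2% of the circRNAs seen in a library rested on 1 read, and a circRNA with 0 reads could make up to 0.0319% to 0.0418% of a library's circRNA reads (3 reads, counting error only). For circRNAs seen in all 3 libraries with 3 to 30 reads in total, the median CV between libraries was 52.2%, against 54.8% from counting alone. From 100 reads it was 14.3% against 14.5%, and from 30 to 100 reads 35.4% against 26.4%. These pairs are not like for like, because a CV taken from 3 libraries tends to fall below the value expected from counting. At few reads, keeping only circRNAs seen in all 3 libraries lowers the CV further. Whether counting alone accounts for the spread was not tested.

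The most abundant circRNAs were named by circBase identifiers, which the tables do not pair with genes. mmu_circ_0000714 had 157, 118 and 104 reads, which were 1.67% (95% exact Clopper-Pearson interval 1.42% to 1.95%), 1.64% (1.36% to 1.96%) and 1.45% (1.19% to 1.75%) of the reads of each library. These intervals cover counting error only and treat reads as independent molecules; no test between libraries was made. mmu_circ_0000798 had 97, 84 and 105 reads and mmu_circ_0001311 123, 76 and 55 reads. The share of the latter was 1.31% (1.09% to 1.56%) in replicate 1 and 0.766% (0.578% to 0.996%) in replicate 3. The other members of the 10 most abundant were mmu_circ_0000629, mmu_circ_0000028, mmu_circ_0001032, mmu_circ_0000684, mmu_circ_0001350, mmu_circ_0000628 and mmu_circ_0001368, with between 33 and 103 reads per library. Together the 10 leading circRNAs of a library held 9.20% to 10.3% of its reads.

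The other 1414 circRNAs were named by coordinates, and 885 of them were seen in the 3 libraries. Both ends of each of the 885 lay on exon ends of 1 transcript in GENCODE M21, in 702 host genes, with a median of 4 exons and a median spliced length of 637 nt. The first exon of the circle was exon 2 of the host transcript in 364 of them (41.1%). Exon 2 makes up 5.88% of the 12312 inner exons pooled over 724 host transcripts. These shares are not like for like, since the second counts each transcript once and long transcripts weigh most in it. A circle of several exons also starts at the earliest of them. Exon 1 was never used, and it has no splice acceptor. Among the 119 seen in all 3 libraries exon 2 came first in 70 (58.8%). Spearman's rho between the reads of a circle and the level of its host was -0.0254 over 875 circRNAs and 0.103 over the 118 seen in all libraries, a description across circRNAs that share libraries and depth. Hosts had a median of 9.53 FPKM, against 6.44 FPKM over all listed mRNA genes.

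**Figure D5:**
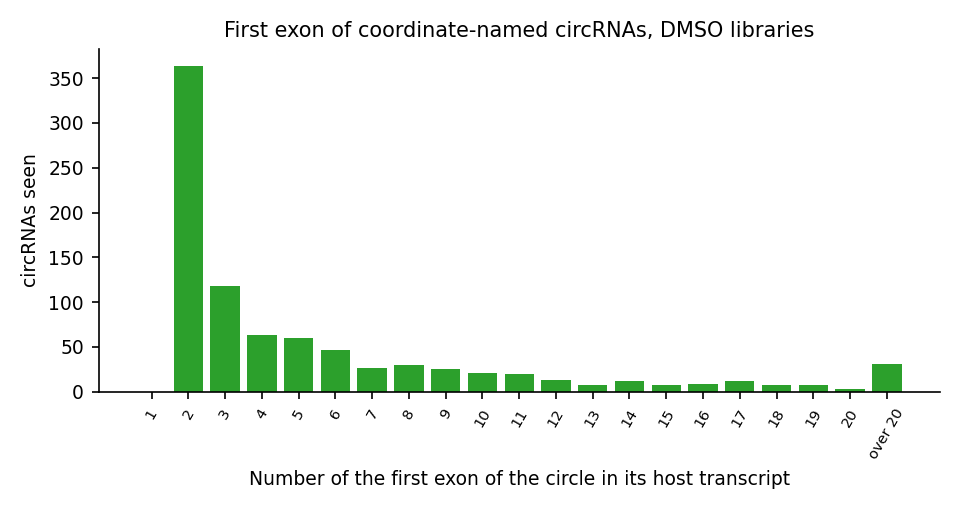
Number of coordinate-named circRNAs seen in the DMSO libraries (885 in all) by the number of their first exon in the host transcript. Exon 2 holds 364, exon 3 holds 118 and exon 1 holds none.

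The most abundant coordinate-named circRNAs came from Rps6ka2 (exons 2 to 11, 39, 34 and 41 reads), which encodes a ribosomal S6 kinase, and from Rims2 (exons 2 to 4, 42, 36 and 29 reads), which encodes an active zone protein. They were followed by Ppm1b (exons 2 to 5, 49, 25 and 34 reads), a protein phosphatase gene, and Asph (exons 2 to 3), which had 64, 20 and 20 reads, highest in replicate 1. Without replicate 1 the mean deposited value of the Asph circle fell from 4179 to 2762. Med13, a Mediator subunit gene, gave a longer circle of exons 10 to 23 with 21, 34 and 20 reads. The hosts with the most circRNAs included Rims2 and Vps13b with 7 each and Lrba with 6. Among the 702 hosts 579 gave 1 circRNA. Rims2 was itself at 11.4 ± 0.400 FPKM and Asph at 2.54 FPKM.

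The junctions that define these circles are printed from GENCODE M21 exon sequence on GRCm38, with the last 15 bases of the downstream exon in lower case and the first 15 bases of the upstream exon in capitals. The circles span chr17:7227913-7271656 (+ strand), chr15:39274976-39292312 (+ strand), chr17:84993680-85005566 (+ strand), chr4:9635901-9639347 (- strand) and chr11:86283200-86308912 (- strand).
Rps6ka2: accatagactggaatGAAGAAGGCATTGTG
Rims2: ttacgctcaaacaagGATCAAAGAAGAACA
Ppm1b: aaagacaatgatgggATTCATTACTAAACA
Asph: ccaaagttttattagAGGCAAAGCACGGAG
Med13: cgatgttccaaatagGTTAATGGTGCAGTG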

How the data were processed

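RNA from the 3 DMSO libraries was described from 9 of the 18 deposited tables, 3 per library; the RSL3 tables were read only to learn how the tables were filtered. The deposited mRNA and lncRNA values are FPKM, and per the submitters' processing notes they came from reads on GRCm38, with StringTie 1.3.3, HISAT2 and cutadapt among the tools. Read depth behind FPKM is unknown, so no counting interval is given for it. The deposited circRNA values are headed CPM per the file headers but were recorded as a signal, since their column sums were 1030940, 983548 and 1001501. Divided by the smallest value of the library, 100% of them lay within 0.01 of a whole number, taken as back-splice reads. Neither the circRNA caller nor the annotation release is named in those notes.

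Means, SD, CV and ranks were computed in Python 3.11.15 with pandas 2.3.3; they were tested on simulated data. Some genes are not reported here. There is no comparison between groups and no p-value. GENCODE M21 matched 11600 of 11609 mRNA and 853 of 866 lncRNA identifiers. Named genes are the 20 nuclear mRNAs with the highest mean, the mitochondrially encoded genes, the 4 highest members of each list with its members that are not listed or under 1 FPKM, fixed ferroptosis and noradrenergic genes, the 10 largest CVs at 10 FPKM or more, and the 10 leading lncRNAs and circRNAs; any further gene was picked once its level was known. The choice of this group of libraries and of the 34 gene lists was made with earlier results of these data known, and 3 further lists (ATF4 targets, Xist with Y-linked genes, housekeeping genes) were added after the values were seen, as were gene families by symbol.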

Additional observations from a re-analysis of the deposited data

How the results depend on the processing

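No paired analysis was possible because only 1 group of libraries is described. The 10522 mRNA genes at 1 FPKM or more became 10497 to 10524 with 1 library left out. They became 10276 when each of the 3 libraries had to reach 1 FPKM. With no filter on low values the count was 11608, and after rescaling each library to a fixed larger sum it was 11597. The table held only 11609 genes, so no setting could raise the count by over 1.5 times. The unfiltered and rescaled counts are therefore no test of its stability. The share of the 10 most abundant genes was 4.50% without mitochondrially encoded genes and 13.1% over the mRNA and lncRNA tables combined. The median CV of 5.54% was 5.22% after median-ratio scaling, 4.13% at 10 FPKM or more and 6.01% with no filter. It was 4.27% to 4.82% with 1 library left out, but a CV from 2 libraries tends to fall below one from 3. As a median SD on another scale the spread was 0.068 for log2(FPKM + 1) and 0.0785 for log2(FPKM + 0.1). The 411 lncRNA genes became 768 at 0.5 FPKM and 866 with no filter. The 733 circRNAs seen in all 3 libraries became 429 with at least 2 reads in each, 169 with at least 5, and 700 after thinning to equal depth. With 1 library left out, 941 to 1081 were seen in both others, a looser demand. Counts of list members moved by over 1.5 times in 15 of 222 recalculations, 13 of them at 5 FPKM. Leaving out 1 library moved the mean of 12 of 526 named genes by over 1.5 times. Besides those given above they include Col1a1 (2.61 FPKM, 1.72 without replicate 1) and S100b (0.173 FPKM, 0.0221 without replicate 3). With 3 libraries an SD is itself imprecise, levels near 0.5 FPKM are incomplete because of the listing limit, and levels of single copies in near-identical families are uncertain.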

Other observations

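Targets of ATF4, the transcription factor of the integrated stress response, were high in these cells, which had received retinoic acid in 2% serum and then DMSO without RSL3. Atf4 itself had 428, 433 and 441 FPKM (434 ± 6.57), rank 46. Of 27 genes in the list, which was written after the values were seen, 26 were listed and 14 were at 100 FPKM or more, with a median of 108 FPKM against 7.49 FPKM for all genes at 1 FPKM or more. The glycyl-tRNA synthetase gene Gars had 308 ± 7.49 FPKM, the amino acid transporter Slc7a5 272 ± 9.54 FPKM and the asparagine synthetase gene Asns 283, 247 and 265 FPKM. The stress genes Trib3 and Ddit3, which encodes CHOP, had 116 ± 0.515 and 57.6 ± 1.51 FPKM. Slc7a11 and Chac1, at 6.94 and 51.3 FPKM, belong to the same list, and Vldlr was the member not listed. Levels in untreated N2a cells are not among those used here.

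Of the 39 annotated Hox genes, which record position along the body axis, 6 were listed, and all of them lie in the HoxC cluster on chromosome 15. Hoxc10 had 29.4, 26.8 and 26.7 FPKM (27.7 ± 1.52), Hoxc6 17.8 ± 0.782 FPKM and Hoxc9 10.4 ± 0.415 FPKM. Hoxc8, Hoxc4 and Hoxc5 had 1.41 ± 0.128, 1.01 ± 0.247 and 0.719 ± 0.159 FPKM. None of the 11 HoxA, 10 HoxB and 9 HoxD genes was listed.

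Of 19 Sox genes 5 were listed, with Sox4 at 85.1, 83.5 and 83.8 FPKM (84.1 ± 0.860) above Sox8, Sox12, Sox9 and Sox11, whose means were 4.22 to 9.17 FPKM. Of 21 Slc6a transporter genes 4 were listed, Slc6a6 (taurine) with 20.7 ± 1.04, Slc6a9 (glycine) with 20.5 ± 0.628, Slc6a15 with 5.75 ± 0.181 and Slc6a8 (creatine) with 5.23 ± 0.517 FPKM. Xist was at 37.0 ± 1.80 FPKM while none of 7 Y-linked genes, Ddx3y, Eif2s3y, Uty, Kdm5d, Usp9y, Zfy1 and Sry, was listed. Erdr1 (Gm47283 in GENCODE M21) is annotated near the end of chromosome Y, in the region shared with chromosome X. It was listed with a mean of 12.6 FPKM as host of 3 circRNAs. The most abundant of them, at chrY:90793296-90793417, had 9, 9 and 12 reads. Reads from this shared region cannot be assigned to either chromosome, so they do not show signal from chromosome Y.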
